A study of Mus musculus with 4 samples.

Results

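The genes described here are 39 genes of the p53 pathway, the Gadd45 family and the apoptosis machinery, chosen by symbol from a written list, and all 39 were present among the 23235 gene symbols of the data. They were measured by RNA-seq in mouse haploid embryonic stem cells of the androgenetic line HG165, which carries a single paternal genome. The 4 samples were 2 from cells treated with DMSO, the solvent, and 2 from cells treated with RDF, a cocktail of Repsox and DMH1, which block TGF-β and BMP4 signalling respectively, and Forskolin, which switches on adenylate cyclase. Both conditions used this line, generally kept in serum medium with leukemia inhibitory factor. The labels describe culture on feeder cells, whereas the methods state that feeders were left out of most experiments and do not list the sequencing among the exceptions, so the sequenced cells may have been free of feeders. Neither the doses and the time of treatment of the sequenced cells nor a sorting for haploid cells is given in the sources used here, and no label says whether the replicates were separate cultures, so that p-values measure the spread between these samples. The values are FPKM, fragments per kilobase of transcript scaled to sequencing depth, and can be compared between genes because they are per length. Gene positions are in build NCBIM37 (mm9), and values after ± are standard errors unless an SD is named.

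The transcription factor p53, encoded by Trp53, is kept low by the ubiquitin ligase Mdm2 and its partner Mdm4 and is set back after stress by the phosphatase Ppm1d. When it is active it induces genes of cell cycle arrest, repair and death, among them Mdm2 and Ppm1d themselves, so that the pathway limits itself. Cell death by the mitochondrial route is decided by the Bcl2 family, in which BH3-only proteins and the pore formers Bax and Bak1 act against Bcl2, Bcl2l1 and Mcl1, and is carried out by Apaf1 and caspases. Embryonic stem cells are known for high levels of pro-apoptotic proteins and for a weak arrest at the G1 checkpoint. The comparison asked which of these genes differed when cells were held in RDF. The study examined RDF for its effect on the cell cycle, on exit from naïve pluripotency and on loss of the haploid state. It also reported, from Annexin V staining of HG165 and other haploid lines, that RDF left apoptosis unaffected, a measure of cells and not of RNA.

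Mdm2, Mdm4 and Ppm1d, which restrain p53, rose with RDF by 0.40 to 0.57 on the log2 scale, while Trp53 itself differed by 0.03 and did not pass the test. All 3 Gadd45 genes fell, by 0.32 to 1.38, and among genes of the death machinery Mcl1 and Bid rose and Bbc3 fell. Of the 39 genes, 37 had a mean of at least 1 FPKM and were tested with limma on log2(FPKM + 1), and Fas and Bcl2 were too low. Of the 37, 7 rose and 6 fell at an adjusted p under 0.05, together 35.1%, and 24 did not pass. The list was drawn up with earlier results of these data known. It holds Sfn, Gadd45a and Gadd45g, which the study named from these samples for a fall, so this share is not an independent result. Over all 11733 genes tested 21.6% passed, with 13.3% up and 8.28% down. The split of these calls was 1561 up and 972 down, and it was 1336 and 1179 with median-ratio scaling and 1247 and 1089 with quantile normalization. A change of more than 2-fold on the log2(FPKM + 1) scale was seen in 2 of the 37, Sfn and Gadd45g, both lower in RDF, and in 1.41% of all genes tested. By the plain ratio of mean FPKM, a measure added after seeing the data, Plk2 was also past it with a ratio of 2.02, and 2.92% of all genes tested were past 2-fold. With 2 samples against 2 the conditions often do not overlap: in 24 of the 37 genes (64.9%), 11 of them not called, and in 65.5% of all genes tested (37.1% with both RDF samples higher and 28.5% with both lower). The median log2 fold change was 0.03 in the 37 genes and 0.03 in all genes, and its median size was 0.13 in the 37 and 0.16 in all genes. Of the 13 that passed, Mdm2, Plk2, Trp53inp1, Sfn and Gadd45g passed under each of the 12 alternative settings tried. The other 8 no longer passed when RDF replicate 1 or RDF replicate 2 was left out, when 5 of the 37 were called, and 12 or 10 were called without DMSO replicate 1 or 2. A fit without 1 sample, RDF or DMSO, leaves that condition with 1 sample, which is assumed to vary like the other condition. Calls over all genes, 2533 in the reported fit, dropped as well in each of these fits.

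**Figure D1:**
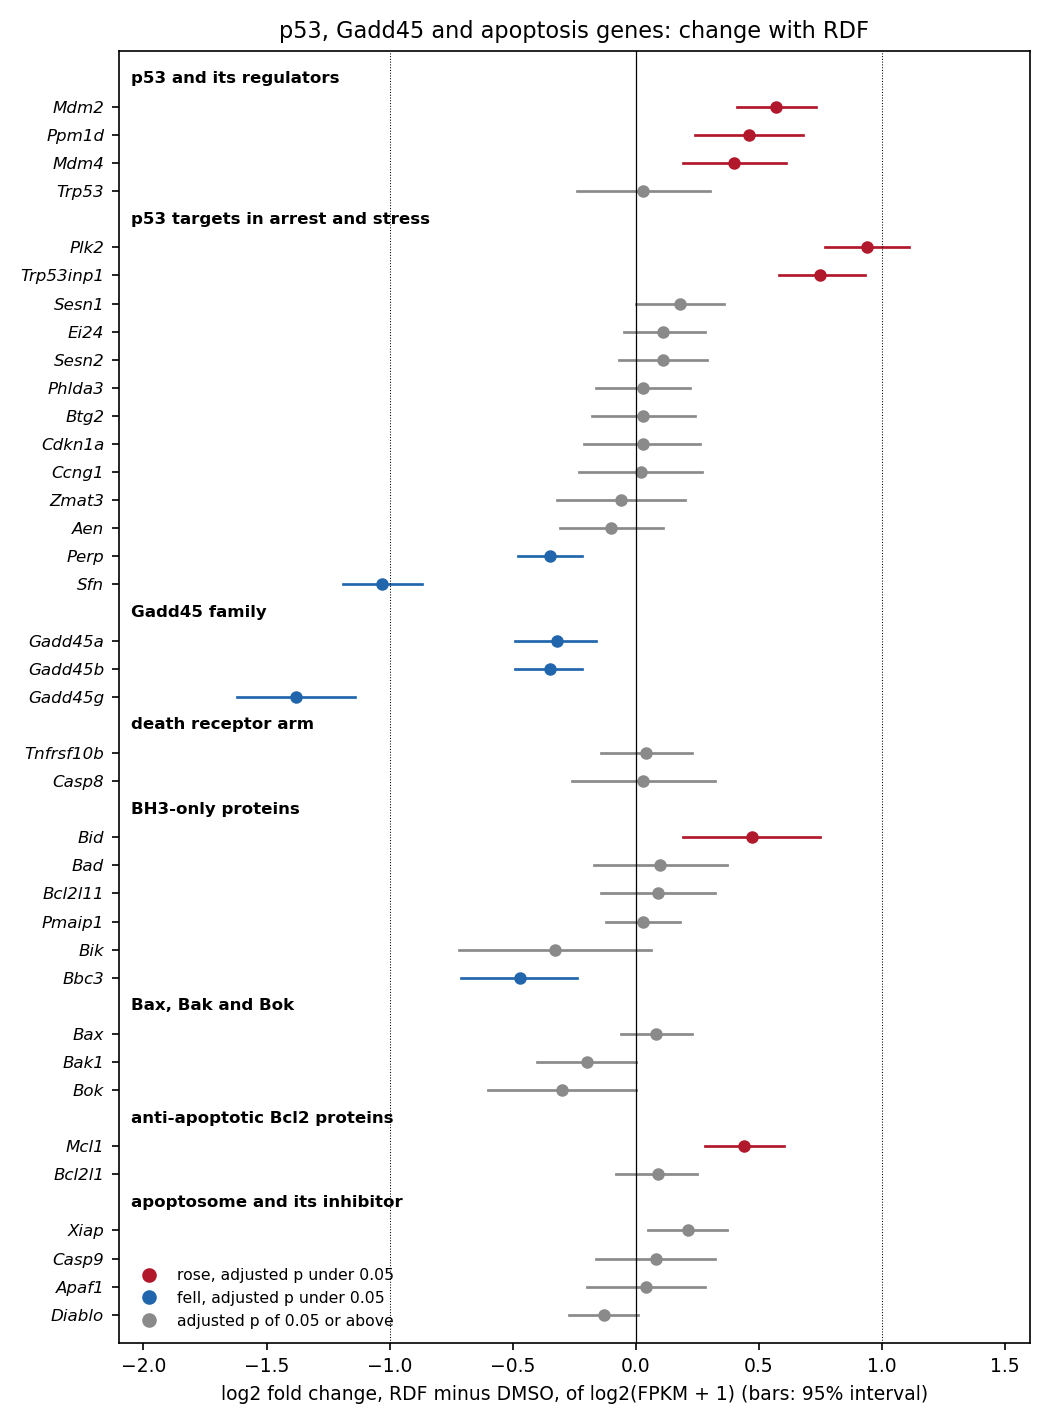
Log2 fold change between RDF and DMSO on the log2(FPKM + 1) scale (x axis) of the 37 tested genes, grouped by role, each dot with its 95% interval from limma and dotted lines at 2-fold. The 3 Gadd45 genes lie left of 0 and the 3 regulators of p53 lie right of it, whereas most other genes have intervals that include 0.

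**Figure D2:**
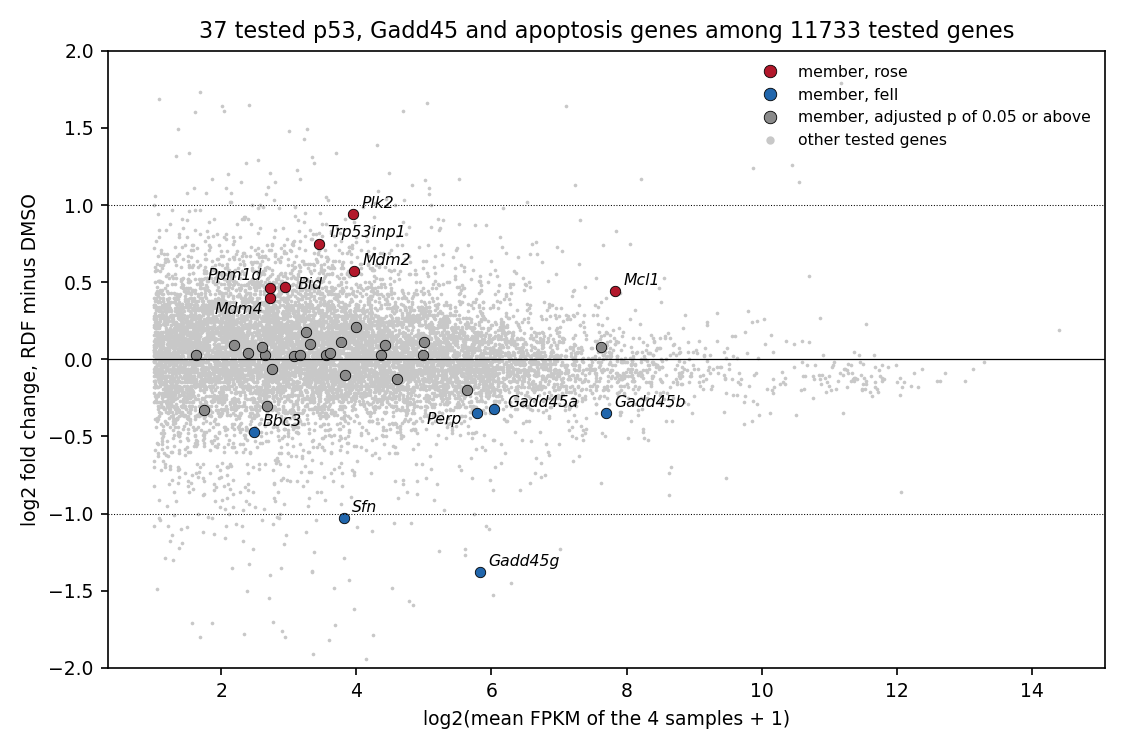
Mean expression over the 4 samples (x axis, log2 scale) against log2 fold change (y axis) for all 11733 tested genes in grey, with the 37 tested p53, Gadd45 and apoptosis genes as larger dots, and with 30 genes beyond the y axis not drawn. Gadd45g and Sfn lie below the dotted line at 2-fold, and Plk2 lies just under the upper one.

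The sum of FPKM lay between 718064 and 764461, but FPKM are already scaled to depth, so this sum does not measure library size. The depth was estimated from the step between low values of genes with 1 annotated transcript. It lay between 9600000 fragments in DMSO replicate 1 and 12400000 fragments in RDF replicate 1. At that step, 41.1% to 45.4% of the low values were within 0.1 of a whole number of fragments, where 20% would be if they were spread evenly, so the depth is approximate. The cells carried stem cell RNA, and their 9 stem cell markers summed to 7890 and 7830 FPKM in DMSO and to 5120 and 4650 FPKM in RDF. Most of this sum was 1 gene, Dppa5a, with 5490 and 5540 FPKM in DMSO and 3230 and 2840 FPKM in RDF. Of the 9 markers, 3 rose (Sox2, Zfp42 and Fbxo15) and 4 fell (Pou5f1, Dppa5a, Utf1 and Tdgf1), so the sum does not describe the markers as a set. The 13 fibroblast markers fixed for feeder cells summed to 46.2 and 45.5 FPKM in DMSO and to 33.1 and 34.1 FPKM in RDF, with none at 0, and of the 9 tested 4 fell and 2 rose. The 7 markers of primitive endoderm summed to 7.67 and 6.26 FPKM in DMSO and to 10.5 and 11.1 FPKM in RDF, also with none at 0, and of the 2 tested Gata6 rose. The part of other cells in the results below was not tested. As the study describes more haploid cells with RDF, a different share of diploid cells cannot be told apart from a change within cells here, nor, in bulk samples, can fewer cells that express a gene be told apart from less RNA per cell.

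Trp53 did not differ beyond the spread of its replicates. It had 10.7 and 10.6 FPKM in DMSO against 9.68 and 12.2 FPKM in RDF, and the lower RDF value was below both DMSO values. Its log2 fold change was 0.03, with a 95% interval from -0.24 to 0.30 and an adjusted p of 0.867 from limma. Mdm2, the ligase that marks p53 for degradation (chr10:117125944-117147814), had 11.5 and 11.6 FPKM in DMSO against 17.3 and 18.0 FPKM in RDF. Both RDF values of Mdm2 lay above both DMSO values, with a log2 fold change of 0.57 ± 0.0646 (SE, adjusted p = 0.0039). Mdm4, the Mdm2 relative that masks the activation domain of p53, had 4.93 and 4.48 FPKM in DMSO against 6.46 and 6.62 FPKM in RDF, and changed by 0.40 ± 0.0867 (log2, SE, adjusted p = 0.0245). Ppm1d, the phosphatase Wip1 that reverses damage signalling, had 4.30 and 4.77 FPKM in DMSO against 6.40 and 6.83 FPKM in RDF, and changed by 0.46 ± 0.0901 (log2, SE, adjusted p = 0.0185). The conditions did not overlap for any of the 3 regulators, as in 65.5% of all genes. With each sample left out in turn, the adjusted p of Mdm2 stayed between 0.00747 and 0.0446, that of Mdm4 lay between 0.0347 and 0.119 and that of Ppm1d between 0.0255 and 0.108. Mdm4 was not called without DMSO replicate 2 or without either RDF sample, and Ppm1d not without DMSO replicate 1 or without either RDF sample.

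A ratio of 2 genes within a sample does not depend on a single scale factor for each sample. It does depend on corrections that differ between genes, such as removal of the trends on length and GC content described further on. With that removal the log2 fold changes were 0.52 for Mdm2, 0.33 for Mdm4 and 0.43 for Ppm1d, against 0.08 for Trp53. The ratio of Mdm2 to Trp53 in FPKM was 1.08 and 1.10 in the DMSO samples and 1.79 and 1.47 in the RDF samples. For Mdm4 the ratio was 0.462 and 0.423 in DMSO and 0.668 and 0.543 in RDF, and for Ppm1d it was 0.403 and 0.450 in DMSO and 0.662 and 0.560 in RDF. All 3 ratios were thus higher in both RDF samples, and their spread in RDF came with the wider spread of Trp53 there. The 3 regulators were called and Trp53 was not, so higher ratios follow from the choice of the genes. The ratios are given as a description, with no test.

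Among the 13 p53 targets of arrest and stress, 2 rose, 2 fell and 9 did not pass the test, so that 30.8% were called against 21.6% of all genes. Cdkn1a, the Cdk inhibitor p21 and a classical target, was among the 9 and had 17.6 and 21.3 FPKM in DMSO against 19.4 and 20.1 FPKM in RDF, so that the RDF values lay between the DMSO values. Its log2 fold change was 0.03, with a 95% interval from -0.21 to 0.26 (adjusted p = 0.855). The log2 fold change was also near 0 for Ccng1, which encodes cyclin G1 (0.02, interval -0.23 to 0.27), for Phlda3, an inhibitor of Akt (0.03, interval -0.16 to 0.22), and for the anti-proliferative gene Btg2 (0.03, interval -0.18 to 0.24). These intervals leave room for changes of that size in either direction, and the sign of these 4 small differences turned in some alternatives. Sesn1 and Sesn2, sensors that restrain mTORC1, differed by 0.18 (interval 0.00 to 0.36, adjusted p = 0.131) and 0.11 (interval -0.07 to 0.29, adjusted p = 0.307). Zmat3, an RNA-binding zinc finger protein, Aen, a nuclease of apoptosis, and Ei24, a protein of the endoplasmic reticulum, had log2 differences of -0.06, -0.10 and 0.11, with adjusted p of 0.711, 0.430 and 0.275.

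The 2 targets that rose were Plk2 and Trp53inp1. Plk2, a polo-like kinase induced by serum and stress (chr13:111185252-111191052), had 9.49 and 9.70 FPKM in DMSO against 18.7 and 20 FPKM in RDF. Its log2 fold change of 0.94 ± 0.0696 (SE, adjusted p = 0.00129) was the largest rise among the 37 genes, and it was 1.01 with a pseudocount of 0.1 in place of 1. The ratio of Plk2 to Cdkn1a was 0.539 and 0.456 in DMSO and 0.966 and 0.995 in RDF. Plk2 was called and Cdkn1a was not, so a shift of this ratio follows from the choice of the pair. Trp53inp1, a stress-induced nuclear protein that takes part in p53 signalling and autophagy (chr4:11083578-11101526), had 7.16 and 7.11 FPKM in DMSO against 12.3 and 13.1 FPKM in RDF, and changed by 0.75 ± 0.0735 (log2, SE, adjusted p = 0.00267). For both genes the lower RDF value was well above the higher DMSO value.

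The 2 that fell were Sfn and Perp. Sfn, which encodes 14-3-3σ, a protein that holds Cdk1 and cyclin B1 in the cytoplasm (chr4:133156471-133158083), had 17.8 and 18.0 FPKM in DMSO against 8.45 and 8.12 FPKM in RDF. Its log2 fold change was -1.03 ± 0.0671 (SE, adjusted p = 0.000947), and it was -0.98 after removal of the trends on transcript length and GC content that are described further on. Perp, a membrane protein of desmosomes and an effector of p53-dependent death, had 60.2 and 61.3 FPKM in DMSO against 46.4 and 48.5 FPKM in RDF, and changed by -0.35 ± 0.0545 (log2, SE, adjusted p = 0.0095). The adjusted p of Perp was 0.0693 without RDF replicate 1 and 0.0555 without RDF replicate 2. Sfn, Gadd45a and Gadd45g are among genes that the study itself named from these samples for a fall, so their direction is not independent evidence of it.

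**Figure D3:**
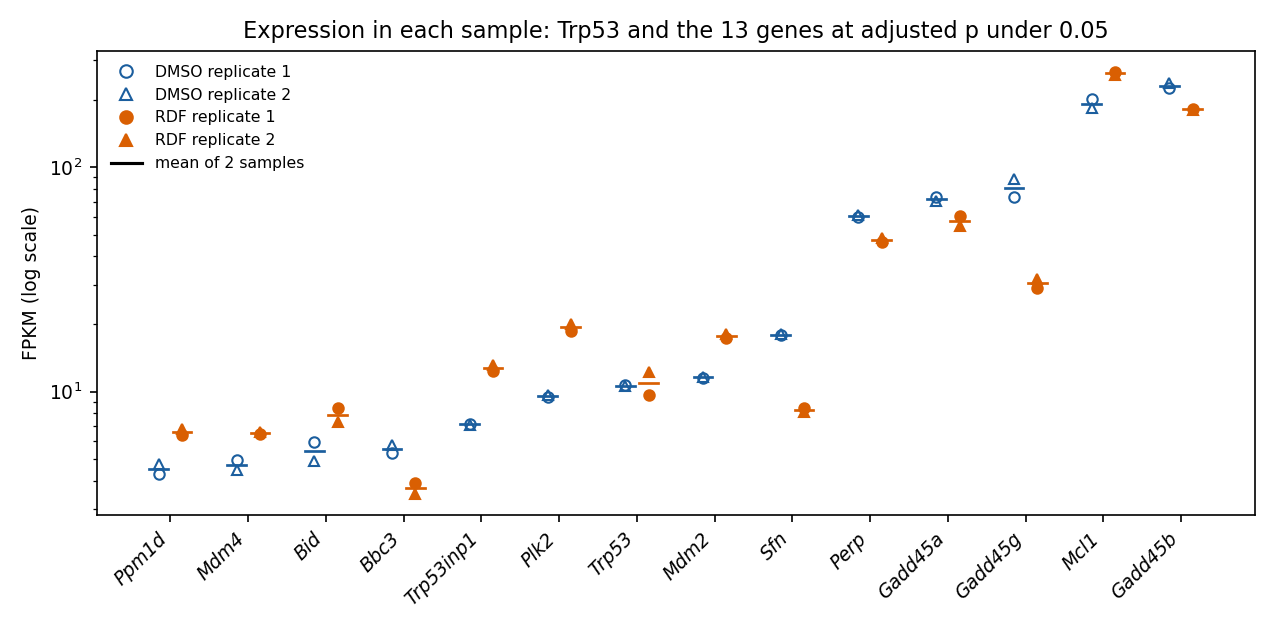
FPKM (y axis, log scale) in each of the 4 samples for Trp53 and for the 13 genes at an adjusted p under 0.05, ordered by their DMSO mean, with open signs for DMSO, filled signs for RDF and bars for the mean of 2 samples. For Trp53 the RDF samples lie on both sides of the DMSO samples, at 9.68 and 12.2 FPKM, and for the 13 other genes the conditions do not overlap, as in 65.5% of all genes tested.

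Promoters were read because Forskolin raises cAMP, whose factor CREB binds the cAMP response element (CRE), and because p53 binds pairs of half-sites. RefSeq listed 45 promoters, from 250 bases before to 50 after a start, for 33 of the 39 genes. The CRE, TGACGTCA, which reads the same on both strands, was in the promoters of 3 genes, Plk2, Ppm1d and Btg2, that is in 6.67% of the 45 and in 1.79% of all 32851 promoters. Its core TGACG, searched on both strands and contained in every CRE, was in 22.2% of the 45 and in 20.8% of all promoters. The p53 half-site, searched on both strands and distinct from the CRE, was in 11 of the 45 (24.4%) and in 8.36% of all promoters, in the genes Aen, Bax, Ccng1, Cdkn1a, Ei24, Gadd45a, Mdm2, Ppm1d, Sesn1 and Trp53. As p53 targets were picked for the list, the share of 24.4% is not an independent result. The CRE lay 62 bases before the start of Plk2, 85 bases before that of Ppm1d and 166 bases before that of Btg2. Plk2 and Ppm1d rose, and Btg2 did not pass the test, with 5.30 and 5.09 FPKM in DMSO and 5.16 and 5.51 FPKM in RDF. Over all tested genes with a RefSeq promoter, 17.1% of 321 with a CRE rose and 7.79% fell, and 13.5% of 8082 without it rose and 8.19% fell. Of the 10 genes with a p53 half-site, Mdm2 and Ppm1d rose, Gadd45a fell and the other 7 did not pass. Over all tested genes 12.6% of 661 with a half-site rose and 8.02% fell, and 13.8% of 7742 without it rose and 8.19% fell. A match of letters is a description and does not show binding. The sequences are RefSeq's for build GRCm38.p6, each was found at 1 place, unchanged, in build NCBIM37 (mm9, the build of the data), and the positions are those in NCBIM37. They are shown 5′ to 3′ on the strand of the gene for the 3 genes with a CRE, for Mdm2 and Gadd45a, called genes with a p53 half-site, and for Gadd45g, the largest fall, with neither. Capitals mark the CRE or a p53 half-site, and Ppm1d holds both, with the half-site first.
Plk2, chr13:111185002-111185301, plus strand: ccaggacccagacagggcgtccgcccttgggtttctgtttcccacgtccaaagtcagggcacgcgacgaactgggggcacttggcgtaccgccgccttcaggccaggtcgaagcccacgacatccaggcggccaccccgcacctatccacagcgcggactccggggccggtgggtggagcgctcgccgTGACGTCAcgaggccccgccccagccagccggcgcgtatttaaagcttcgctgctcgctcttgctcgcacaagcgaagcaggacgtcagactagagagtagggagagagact
Ppm1d, chr11:85124506-85124805, plus strand: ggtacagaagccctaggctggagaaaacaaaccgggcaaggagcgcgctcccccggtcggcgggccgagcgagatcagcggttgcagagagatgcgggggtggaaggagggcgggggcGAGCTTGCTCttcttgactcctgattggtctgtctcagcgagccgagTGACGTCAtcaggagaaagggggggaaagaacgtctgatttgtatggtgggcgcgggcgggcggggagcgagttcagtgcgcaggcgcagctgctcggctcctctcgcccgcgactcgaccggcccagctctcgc
Btg2, chr1:135975683-135975982, minus strand: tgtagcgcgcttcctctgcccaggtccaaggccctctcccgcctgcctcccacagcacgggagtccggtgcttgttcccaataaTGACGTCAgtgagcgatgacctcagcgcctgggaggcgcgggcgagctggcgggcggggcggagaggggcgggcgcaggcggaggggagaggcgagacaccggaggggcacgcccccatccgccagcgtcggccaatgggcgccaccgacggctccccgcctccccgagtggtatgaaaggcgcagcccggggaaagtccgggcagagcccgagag
Mdm2, chr10:117147765-117148064, minus strand: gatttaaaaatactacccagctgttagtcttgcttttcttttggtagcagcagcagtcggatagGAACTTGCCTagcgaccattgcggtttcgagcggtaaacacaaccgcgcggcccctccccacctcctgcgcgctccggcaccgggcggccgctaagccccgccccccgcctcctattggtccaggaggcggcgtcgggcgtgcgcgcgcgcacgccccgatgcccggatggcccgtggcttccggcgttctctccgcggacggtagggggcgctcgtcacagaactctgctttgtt
Gadd45a, chr6:66987352-66987651, minus strand: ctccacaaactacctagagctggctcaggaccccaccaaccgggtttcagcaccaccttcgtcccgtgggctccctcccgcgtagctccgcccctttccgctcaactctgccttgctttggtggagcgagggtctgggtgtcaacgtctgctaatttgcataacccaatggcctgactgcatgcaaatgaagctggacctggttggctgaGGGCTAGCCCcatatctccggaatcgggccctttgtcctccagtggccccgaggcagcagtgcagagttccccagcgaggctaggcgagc
Gadd45g, chr13:51941794-51942093, plus strand: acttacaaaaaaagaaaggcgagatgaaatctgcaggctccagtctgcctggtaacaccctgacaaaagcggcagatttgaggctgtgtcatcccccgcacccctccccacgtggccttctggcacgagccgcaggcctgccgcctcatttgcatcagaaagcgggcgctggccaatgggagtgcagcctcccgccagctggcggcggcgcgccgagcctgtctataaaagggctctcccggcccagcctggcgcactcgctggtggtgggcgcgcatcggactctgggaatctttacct

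All 3 genes of the Gadd45 family fell. Gadd45 proteins are small stress-induced proteins that bind Pcna, the Cdk1-cyclin B1 complex and the kinase Map3k4 at the head of p38 and JNK signalling, and that can delay entry into mitosis. Gadd45g (chr13:51942047-51943837) had 73.5 and 88.4 FPKM in DMSO against 29.0 and 31.8 FPKM in RDF. It had the largest change of the 37 genes, -1.38 ± 0.0979 (log2, SE, adjusted p = 0.00119), with a 95% interval from -1.62 to -1.14. Gadd45b (chr10:80392836-80394949) had 226 and 237 FPKM in DMSO against 181 and 180 FPKM in RDF, and changed by -0.35 ± 0.0545 (log2, SE, adjusted p = 0.00921). Gadd45a (chr6:66985090-66987451) had 73.7 and 70.8 FPKM in DMSO against 60.4 and 54.8 FPKM in RDF, and changed by -0.32 ± 0.0663 (log2, SE, adjusted p = 0.0211). For each of the 3 genes both RDF values were below both DMSO values, as in 28.5% of all genes tested. The intervals of Gadd45a (-0.49 to -0.16) and Gadd45b (-0.49 to -0.22) lie apart from that of Gadd45g. The fall of Gadd45a had an adjusted p of 0.0542 without DMSO replicate 1, 0.0539 without RDF replicate 1 and 0.113 without RDF replicate 2, and that of Gadd45b had 0.0695 and 0.0758 without RDF replicates 1 and 2. Exons of E230016M11Rik overlap Gadd45a on the opposite strand, and that gene also fell, from 6.69 and 8.95 FPKM to 4.30 and 4.79 FPKM (log2 fold change -0.66, adjusted p = 0.0219, and up to 0.12 when an RDF sample was left out). The library kit was stranded, but whether the authors counted by strand is not given in the sources used here, so that reads of the 2 genes may not have been kept apart.

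The makeup of the family shifted as well. The summed level of the 3 genes went from 373 and 396 FPKM with DMSO to 270 and 267 FPKM with RDF. Gadd45g made up 19.7% and 22.3% of it in DMSO and 10.7% and 11.9% in RDF. Gadd45b, the most abundant of the 3 in every sample, went from 60.5% and 59.8% to 66.9% and 67.6%, and Gadd45a had 19.8% and 17.9% in DMSO and 22.4% and 20.5% in RDF. In DMSO the levels of Gadd45a and Gadd45g were close, with means of 72.3 ± 2.05 and 81.0 ± 10.6 FPKM (SD, n = 2 each), and in RDF Gadd45g stood below Gadd45a, at 30.4 ± 1.93 against 57.6 ± 4.01 FPKM (SD, n = 2 each). These shares are within samples and carry no test.

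**Figure D4:**
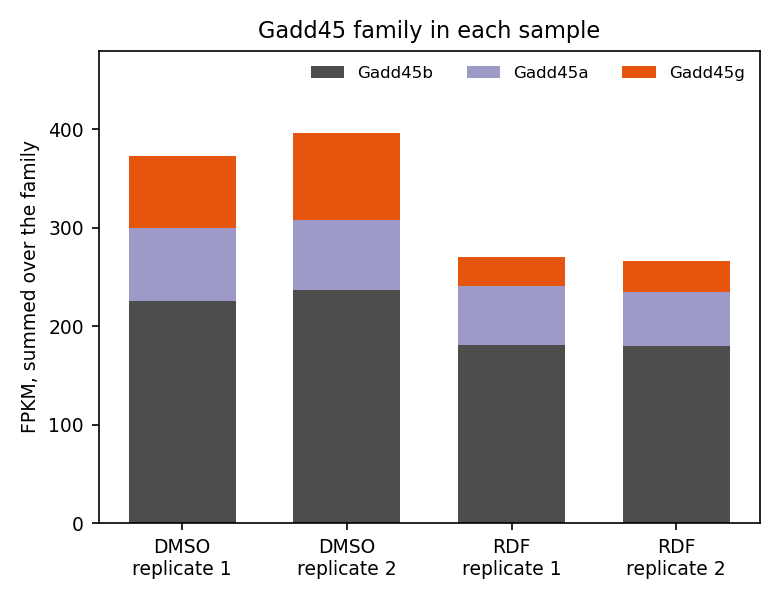
Summed FPKM of the Gadd45 family (y axis) in each of the 4 samples, stacked by gene. The bars reach 373 and 396 FPKM in DMSO and 270 and 267 FPKM in RDF, and in FPKM the segments of Gadd45g and Gadd45b shrink about equally.

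Of 8 genes for partners of the Gadd45 proteins or for kinases of p38 signalling, 4 rose and none fell, 50% against 21.6% of all genes. Of the 4, Map3k4, Mapk14 and Cdk1 lay close to the threshold. Cdk1 had 48.0 and 49.5 FPKM in DMSO against 56.4 and 55.5 FPKM in RDF (log2 fold change 0.20, adjusted p = 0.0475), and was not followed through the alternative settings. Map2k6, a kinase that activates p38, rose from 10.1 and 10.9 FPKM in the DMSO samples to 22.3 and 21.3 FPKM in the RDF samples, by 0.99 ± 0.071 (log2, SE, adjusted p = 0.00119). Map3k4, the kinase that Gadd45 proteins bind, rose from 6.79 and 6.84 to 8.20 and 9.51 FPKM (log2 fold change 0.33, adjusted p = 0.0492), and Mapk14, p38α itself, from 31.2 and 31.8 to 35.9 and 37.5 FPKM (log2 fold change 0.21, adjusted p = 0.0442). Map2k6 passed under each of the 12 alternative settings, but Map3k4 and Mapk14 passed under only 3 of 12 each, and not with either other scaling or without any one of the 4 samples. Map2k3, the other p38-activating kinase of the list, had 16.4 and 16.8 FPKM in DMSO against 17.3 and 15.8 FPKM in RDF (log2 difference -0.01, adjusted p = 0.966).

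The death machinery had 19 genes, those of BH3-only proteins, pore formers, survival proteins, the apoptosome and death receptors, and of the 17 that were expressed enough to be tested 3 passed (17.6%, against 21.6% of all genes). Mcl1, a survival protein of short life (chr3:95462643-95467099), had 201 and 183 FPKM in DMSO against 266 and 257 FPKM in RDF. Both RDF values of Mcl1 were higher than either DMSO value, as in 37.1% of all genes tested. Its log2 fold change was 0.44 ± 0.0649 (SE, adjusted p = 0.00816), and the adjusted p was 0.0690 and 0.0625 without RDF replicates 1 and 2. Bbc3, the BH3-only protein Puma, had 5.30 and 5.77 FPKM in DMSO against 3.91 and 3.51 FPKM in RDF, and changed by -0.47 ± 0.0957 (log2, SE, adjusted p = 0.0204). Bid, the BH3-only protein that caspase-8 cleaves, went the other way, from 5.93 and 4.90 FPKM to 8.48 and 7.31 FPKM, and changed by 0.47 ± 0.115 (log2, SE, adjusted p = 0.0352). Without DMSO replicate 2 the adjusted p was 0.0664 for Bbc3 and 0.0938 for Bid. Without either RDF sample it was 0.0691 or 0.109 for Bbc3 and 0.162 or 0.0876 for Bid. Exons of Bid overlap Bcl2l13 on the opposite strand, whose level was 13.3 and 13.9 FPKM in DMSO and 11.6 and 12.5 FPKM in RDF.

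The other BH3-only genes did not pass. Pmaip1, the protein Noxa that neutralises Mcl1, was the most abundant of the 6, at 53.4% and 55.3% of their summed FPKM in DMSO and 53.6% and 54.6% in RDF, with a log2 difference of 0.03 (interval -0.12 to 0.18, adjusted p = 0.735). Bcl2l11 (Bim) and Bad differed by 0.09 and 0.10, and Bik, a BH3-only protein of the endoplasmic reticulum, by -0.33 (interval -0.72 to 0.06, adjusted p = 0.188). The sum of the 6 genes was 58.7 and 53.6 FPKM in DMSO and 59.7 and 55.7 FPKM in RDF. The ranges of the 2 conditions overlapped.

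Among pore formers none passed. Bax had 190 and 191 FPKM in DMSO against 209 and 195 FPKM in RDF, a log2 difference of 0.08 (interval -0.06 to 0.23, adjusted p = 0.338). Bak1 had 48.4 and 56.0 FPKM in DMSO against 43.8 and 46.4 FPKM in RDF, a difference of -0.20 (adjusted p = 0.127), which passed without DMSO replicate 1 (log2 fold change -0.31, adjusted p = 0.0383). Bok, a relative of Bax and Bak1, was lower by far in level, with 5.36 and 6.71 FPKM in DMSO and 5.04 and 4.34 FPKM in RDF (log2 difference -0.30, adjusted p = 0.132). Both RDF values of Bax were above, and both of Bak1 and of Bok below, their DMSO values, by less than the test required. Such a lack of overlap was seen in 65.5% of all genes tested. The summed level of the 3 was 244 and 253 FPKM in DMSO and 258 and 245 FPKM in RDF, of which Bax made up between 75.2% and 81.1%.

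Among survival genes Mcl1 held most of the RNA. It made up 91.4% and 89.8% of the summed FPKM of Mcl1, Bcl2l1 and Bcl2 in the DMSO samples and 92.6% and 92.4% in the RDF samples, and the sum went from 220 and 204 FPKM to 287 and 278 FPKM. Bcl2l1, which encodes Bcl-xL, differed by 0.09 (interval -0.08 to 0.25, adjusted p = 0.4). Bcl2 itself was at 0.104 to 0.182 FPKM, about 8.35 to 16.3 fragments at the estimated depth and the length of its longest coding transcript. It lay under the filter and was not tested, its conditions overlapped, and with so few fragments a small difference could not be seen. The ratio of Bax to Mcl1 was 0.946 and 1.04 in DMSO and 0.786 and 0.757 in RDF, whereas the ratio of Bax to Bcl2l1 was 10.1 and 9.20 in DMSO and 10 and 9.20 in RDF. The ratio of Mcl1 to Bbc3 was 38.0 and 31.8 in DMSO and 68.0 and 73.3 in RDF. These 2 genes were called in opposite directions, so a shift of their ratio follows from the choice of the pair. The same holds for Bax over Mcl1, as Mcl1 was called and Bax was not. Bid, the other called BH3-only gene, rose as Mcl1 did, with ratios of mean FPKM, RDF over DMSO, of 1.46 for Bid and 1.36 for Mcl1. In FPKM, Mcl1, Gadd45b and Bax ranked highest of the 37, at percentiles 96.3, 95.9 and 95.7 of all tested genes, and Casp8 and Bik lowest, at percentiles 13.4 and 15.5.

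The genes of the apoptosome and of death receptors did not pass. Apaf1, which builds the apoptosome, and Casp9, its caspase, differed by 0.04 and 0.08 (adjusted p = 0.797 and 0.607). Xiap, the caspase inhibitor, had 13.6 and 13.9 FPKM in DMSO against 15.6 and 16.6 FPKM in RDF. The conditions did not overlap, as in 65.5% of all genes tested. The log2 difference of Xiap was 0.21 (adjusted p = 0.0724), and 0.04 with the length and GC trend removed. Its antagonist Diablo had 24.5 and 24.2 FPKM in DMSO against 22.1 and 22.3 FPKM in RDF, a difference of -0.13 (adjusted p = 0.161). Tnfrsf10b, the Trail receptor, had 10.4 and 11.5 FPKM in DMSO against 11.3 and 11.4 FPKM in RDF, and Casp8, the caspase that death receptors activate, had 2.24 and 1.90 FPKM in DMSO against 2.30 and 1.96 FPKM in RDF, with adjusted p of 0.710 and 0.882. Fas, with 0.481 and 0.165 FPKM in DMSO and 0.373 and 0.760 FPKM in RDF, rested on about 2.75 to 12.8 fragments a sample, and its conditions overlapped.

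Other genes of these pathways were taken from lists that, like the 39 genes, were drawn up with earlier results of these data known. Of 29 other p53 target genes, 28 were in the data and 24 were tested, of which 1 rose and 1 fell (8.33%, against 21.6% of all genes). These were Trp53i11 (log2 fold change 0.42, adjusted p = 0.0322) and Triap1, an inhibitor of apoptosome formation (-0.33, adjusted p = 0.0433). Of 20 genes for proteins that modify or bind p53, 2 rose and 2 fell (20%). Ep300, the acetyltransferase p300 that p53 and CREB both recruit, rose from 5.29 and 5.01 FPKM to 9.84 and 11.1 FPKM (log2 fold change 0.90, adjusted p = 0.00286). Prmt5, a methyltransferase, fell from 130 and 128 FPKM to 98.1 and 100 FPKM (log2 fold change -0.37, adjusted p = 0.00652), and Ppp1r13l, the inhibitor iASPP, fell by 0.33 on the log2 scale (adjusted p = 0.0435). Of 30 other apoptosis genes, 25 were tested, of which 3 rose and 2 fell (20%). Cflar, the inhibitor of Casp8, fell from 3.58 and 5.67 FPKM to 1.91 and 2.29 FPKM (log2 fold change -0.84, adjusted p = 0.0271), Tnfrsf1a, a receptor of Tnf, rose by a log2 fold change of 0.47 (adjusted p = 0.0125) and Birc6, a large inhibitor of apoptosis, by 0.37 (adjusted p = 0.0440). Of these 8 genes only Ep300 passed under each alternative. Without either RDF sample the other 7 did not pass, and Birc6 passed under 3 of 12 alternatives, failing also with either other scaling and without either DMSO sample. Trp53i11 and Triap1 also did not pass without DMSO replicate 2, nor Ppp1r13l without either DMSO sample.

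What rose and what fell also differed in transcript length, a property that did not enter the choice of genes. The longest annotated coding transcripts of the 7 genes that rose measured 2415 to 5404 nucleotides, and those of the 6 that fell measured 1071 to 1901 nucleotides, so that the ranges did not overlap. For the 24 others the range was 943 to 7791 nucleotides. GC content was 38.8% to 51.3% in the 7 and 47.3% to 65.2% in the 6. The same tendency was seen across genes, with a median length of 3738 nucleotides in the 1528 genes with a known length that rose and 2196.5 nucleotides in the 942 that fell. Over 11317 genes, which are not independent replicates, log2 fold change and log2 length had a Pearson r of 0.206, and length and fold change a Spearman rho of 0.259. When the trend of each sample on length and GC was removed, an alternative chosen after seeing the data, the same 13 of the 37 genes were called, while the calls over all genes became 1425 up and 1403 down, against 1561 up and 972 down before. Their log2 fold changes were then 0.52 for Mdm2, 0.91 for Plk2, 0.61 for Trp53inp1, -1.32 for Gadd45g and -0.28 for both Gadd45a and Gadd45b.

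**Figure D5:**
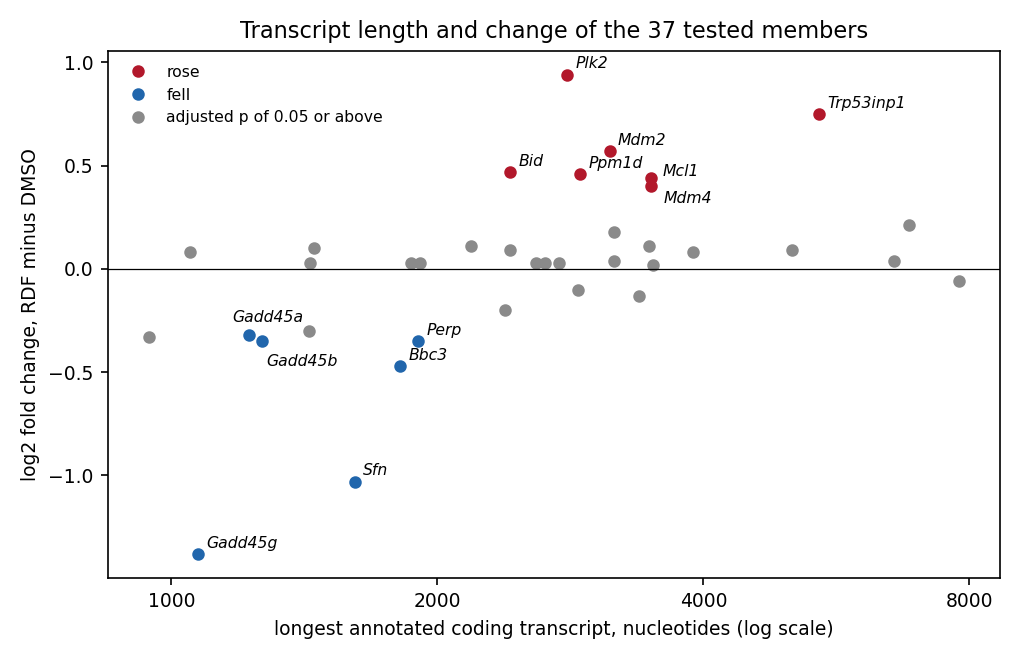
Length of the longest annotated coding transcript (x axis, nucleotides, log scale) against log2 fold change on the log2(FPKM + 1) scale (y axis) for the 37 tested genes. The 6 genes that fell end at 1901 nucleotides and the 7 that rose start at 2415 nucleotides, and genes that did not pass span both.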

How the data were processed

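RNA was measured in 2 DMSO and 2 RDF samples. The authors mapped reads with TopHat2 2.0.14 and Bowtie2 2.1.0 and estimated FPKM with Cufflinks 2.2.1 on the UCSC mm9 annotation (versions from the submitters' processing notes), and deposited FPKM per gene symbol, 1 file a sample. FPKM hold no counts, and how fragments shared between genes were divided is not given in the sources used here.

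Values were compared as log2(FPKM + 1) for genes whose 4-sample mean reached 1 FPKM, with limma 3.58.1 in R 4.3.3 (lmFit, eBayes with a mean-variance trend, no block) and Benjamini-Hochberg adjustment over all 11733 genes, at a threshold of 0.05. Fold changes on this scale understate changes of low genes. Depth came from genes with a single transcript of at least 1500 nucleotides. Transcript lengths and positions are from GENCODE vM1 on NCBIM37, and promoters from RefSeq. The fit was tested on simulated data.

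The genes and lists were chosen with earlier results of these data known. All 39 genes are described, with values per sample for called genes, Trp53 and its regulators and the Gadd45 family, and in each other list at most the 3 called genes of largest change. The genes whose promoters are shown were chosen after their values were seen, as were the 2 overlapping genes described, Map2k3 and Cdk1. Exons of Ei24, Bad, Bak1, Bcl2, Casp9 and Diablo also overlap genes on the opposite strand, whose values are not given here. Of 4 older symbols looked up, 3 were found. Alternatives were another pseudocount, filters, scalings, variance model, a replicate block, each sample left out, and, added after seeing the data, removal of length and GC trends (natural splines with 4 degrees of freedom each) and plain FPKM ratios.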

Additional observations from a re-analysis of the deposited data

How the results depend on the processing

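Of the 37 genes, 13 were called in the reported fit. The count was 8 without a filter on low values, when Bbc3, Bid, Gadd45a, Mdm4 and Ppm1d were not called and calls over all genes were 1548, and between 5 and 12 with each sample left out, when calls over all genes were 549 to 1951. The number of genes past 2-fold was 321 with a pseudocount of 0.1, 343 by the plain ratio of mean FPKM and 106 with a filter at 5 FPKM, and among the 37 it was 1 with the length and GC trend removed. With the replicate number as a block, all 13 calls were kept and 2717 genes were called over all genes. The labels do not say that a number marks a shared culture or day, and with 2 pairs the deviations of same-numbered samples had a Pearson r of 0.134 across genes. Bid was not called with quantile normalization (adjusted p = 0.0587) and Bbc3 was not tested with a filter at 5 FPKM. No alternative reversed any of the 13. Signs turned in genes that were not called and lay near 0. With median-ratio scaling the log2 difference was -0.0013 for Trp53, -0.004 for Cdkn1a, -0.01 for Ccng1 and -0.0019 for Phlda3. With quantile normalization it was -0.02 for Trp53, -0.05 for Ccng1, -0.04 for Phlda3, -0.03 for Btg2, -0.0042 for Tnfrsf10b, -0.02 for Casp8 and -0.03 for Apaf1. With the length and GC trend removed it was -0.06 for Ccng1, -8e-04 for Pmaip1, -0.03 for Bcl2l11 and -0.12 for Apaf1. With each sample left out the range was -0.12 to 0.18 for Trp53, -0.1 to 0.16 for Cdkn1a, -0.11 to 0.14 for Ccng1, -0.02 to 0.08 for Phlda3, -0.01 to 0.07 for Btg2, -0.16 to 0.04 for Zmat3, -0.02 to 0.11 for Tnfrsf10b, -0.05 to 0.11 for Casp8, -0.01 to 0.07 for Pmaip1, -0.05 to 0.24 for Bad, -0.05 to 0.13 for Apaf1 and -0.02 to 0.17 for Casp9. The median log2 fold change of all genes was 0.026 in the reported fit, -0.0036 with median-ratio scaling and -0.0022 with quantile normalization. The cause of these shifts was not tested. Low genes rest on few fragments, for example an estimated 16.9 to 27.8 a sample for Bik, and with 2 samples a condition small differences were not measured precisely.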
